A study of Mus musculus with 8 samples.

Results

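Solute carrier genes encode membrane transporters that move small molecules across the cell surface and across organelle membranes. They are numbered by family, so the family number in a name such as Slc28a1 groups genes by protein similarity, and often by what they carry. The genes described here are those of the array whose symbol follows the solute carrier pattern, leaving out the mitochondrial Slc25 family, the Slc51 genes and 24 well-known carriers of amino acids, peptides, sugars, bile acids, iron and anions. This rule found 378 of 25697 probes, standing for 260 of 16590 named genes in 47 families.

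Epithelial cells are known to place different carriers on the side that faces the gut lumen and on the side that faces the blood, and the small intestine is known as the main site of nutrient uptake. The colon is known to take up short-chain fatty acids, salts and vitamins made by bacteria. In goblet cells, which make mucus, carriers of the Golgi also import the nucleotide sugars from which mucin glycans are built.

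The cells came from small intestine (4 samples) or colon (4 samples) of C57Bl/6 mice, with no other genotype or treatment and no age in the labels. Both groups were sorted from EDTA-released epithelium as goblet cells, by the absence of CD45 and CD24, the presence of cytokeratin 18 and the binding of the lectin UEA-I. Each sample was hybridised to 1 Illumina expression array. The labels do not say whether samples were separate animals or pools, so each p-value speaks only of the spread among these 8 samples, part or all of which could be technical.

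The mean deposited signal was 386 to 558 units per array, with 12447 to 13922 probes above background on an array (detection p-value below 0.05). All 9 tested goblet cell markers, among them Tff3 and Clca1, were above background on all 8 arrays, and 4 of them were called higher in colon. All 10 tested enterocyte markers and all 6 tested Paneth cell markers were called higher in small intestine. The summed level of the enterocyte markers was 38720 to 55346 linear units in small intestine and 832 to 8381 in colon, where it was highest on replicate 4. For the Paneth cell markers the sum was 67654 to 79372 in small intestine and 1402 to 11738 in colon, where replicates 1 and 4 were highest. Of 6 tested lymphocyte markers 5 were called for small intestine, and of 8 tested colonocyte markers 7 were higher in colon. The enterocyte marker Fabp1 was above background on no colon array and the colonocyte marker Aqp8 on no small-intestinal array. The part of these other cell types in the differences below was not tested. In sorted but mixed RNA, fewer cells of a type and less RNA per cell cannot be told apart.

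All levels below are quantile-normalized log2 signals, given for replicates 1 to 4 in turn, and can be compared between arrays but not between genes. A fold change is the log2 level in colon minus that in small intestine, and positive values mean higher in colon. A gene is called when its adjusted p-value in the limma fit over all tested probes (Benjamini-Hochberg) is below 0.05, and it is called for colon or for small intestine by where it was higher. For a gene that no array of a segment detected above background, the fold is printed as "at least" a value. Where only some arrays detected it, the fold is measured near the floor. Among called carriers named below, 1 colon array detected Slc5a4b, Slc5a11, Slc28a1, Slc28a2 and Slc46a1, and 2 detected Slc6a4. In small intestine 1 array detected Slc27a3 and 2 detected Slc8a1. For Slc16a10, Slc28a3 and Slc41a2 the number was 3 in colon, and for Slc5a3 and Slc37a2 it was 3 in small intestine.

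The solute carriers kept by the rule were called in both directions in equal number. Of the 51 tested solute carriers that it left out, 8 were called for colon and 18 for small intestine. Of the 260 genes, 138 were above background on at least 4 arrays and were tested, of which 34 were called for colon, 34 for small intestine and 70 for neither. Over all 9080 named genes tested, 22.4% were called (21.4% of all tested probes), 13.1% for colon and 9.3% for small intestine. Calls of at least 2-fold were made for 29 carriers in colon and 30 in small intestine, against 15.4% of all named genes in either direction. The values of the segments did not overlap for 70 of the 138, against 26.2% of all named genes. The median fold change was 0.11 for the carriers and 0.07 for all named genes, while the median size of the change was 0.85 and 0.37. Among the 97 carriers above background on all 8 arrays, 28 were called higher in colon and 20 in small intestine (49.5% called). Among the 6961 named genes above background on all 8 arrays, these numbers were 839 and 529 (19.7% called). Without colon replicates 1 and 4, the colon arrays with the highest summed Paneth cell markers, 26 and 24 of the 138 were called. Over all tested probes, the calls went from 1580 and 1339 to 943 and 805 under this omission, which also leaves fewer colon arrays. Without scaling between arrays, 19 were called higher in colon and 32 in small intestine, with the median of all named genes shifted to -0.14. The calls over all tested probes were then 744 and 1051.

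The 122 carriers not tested included 85 above background on no array and 37 above it on 1 to 3 arrays. Among them were Slc16a1 (MCT1, a lactate and butyrate carrier), Slc1a5, Slc19a3, Slc23a1 and Slc4a1, for which the array gives no comparison.

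**Figure D1:**
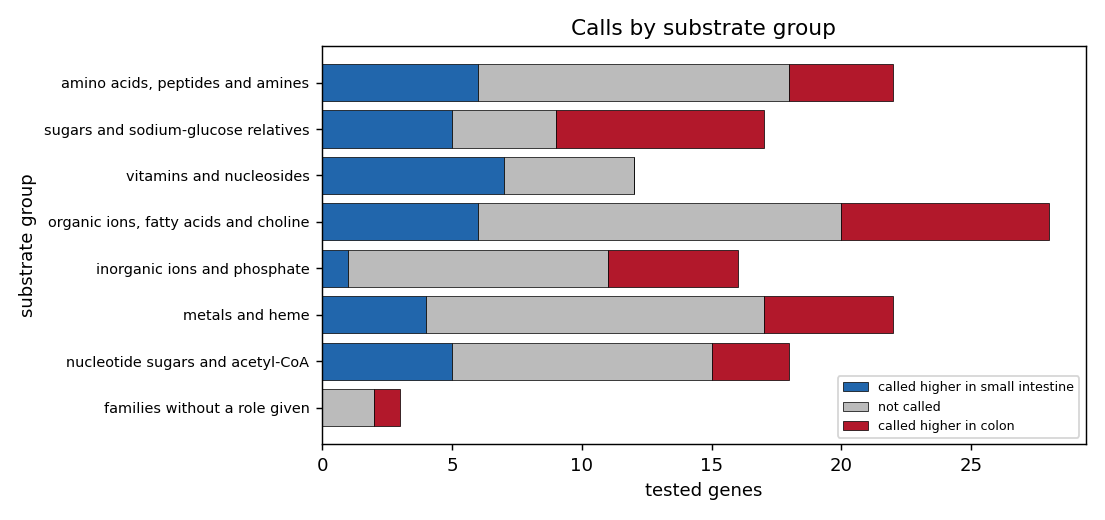
Number of tested solute carrier genes (x axis) in 8 substrate groups (y axis), split into called higher in small intestine (blue), not called (grey) and called higher in colon (red). The vitamin and nucleoside group has 7 blue and 0 red genes of 12, and the inorganic ion and phosphate group has 1 blue and 5 red of 16.

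By family, 45 of the 47 had at least 1 tested gene. Calls went only to colon in 13 families, only to small intestine in 13, both ways in 9, and 10 families had none. Many of these families have 1 or 2 tested genes. Of the families with at least 3 tested genes, Slc28 had all 3 called higher in small intestine and none in colon, and Slc44 had 3 of 4 called higher in colon and none in small intestine. Slc2 had 3 of its 4 genes called for colon and 1 for small intestine, and Slc5 had 2 and 3 of 7. By number of tested genes, Slc35 came first, with 3 and 4 of 17, and Slc39 next, with 3 and 1 of 9. Slc30 had 1 called of 7, higher in small intestine.

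**Figure D2:**
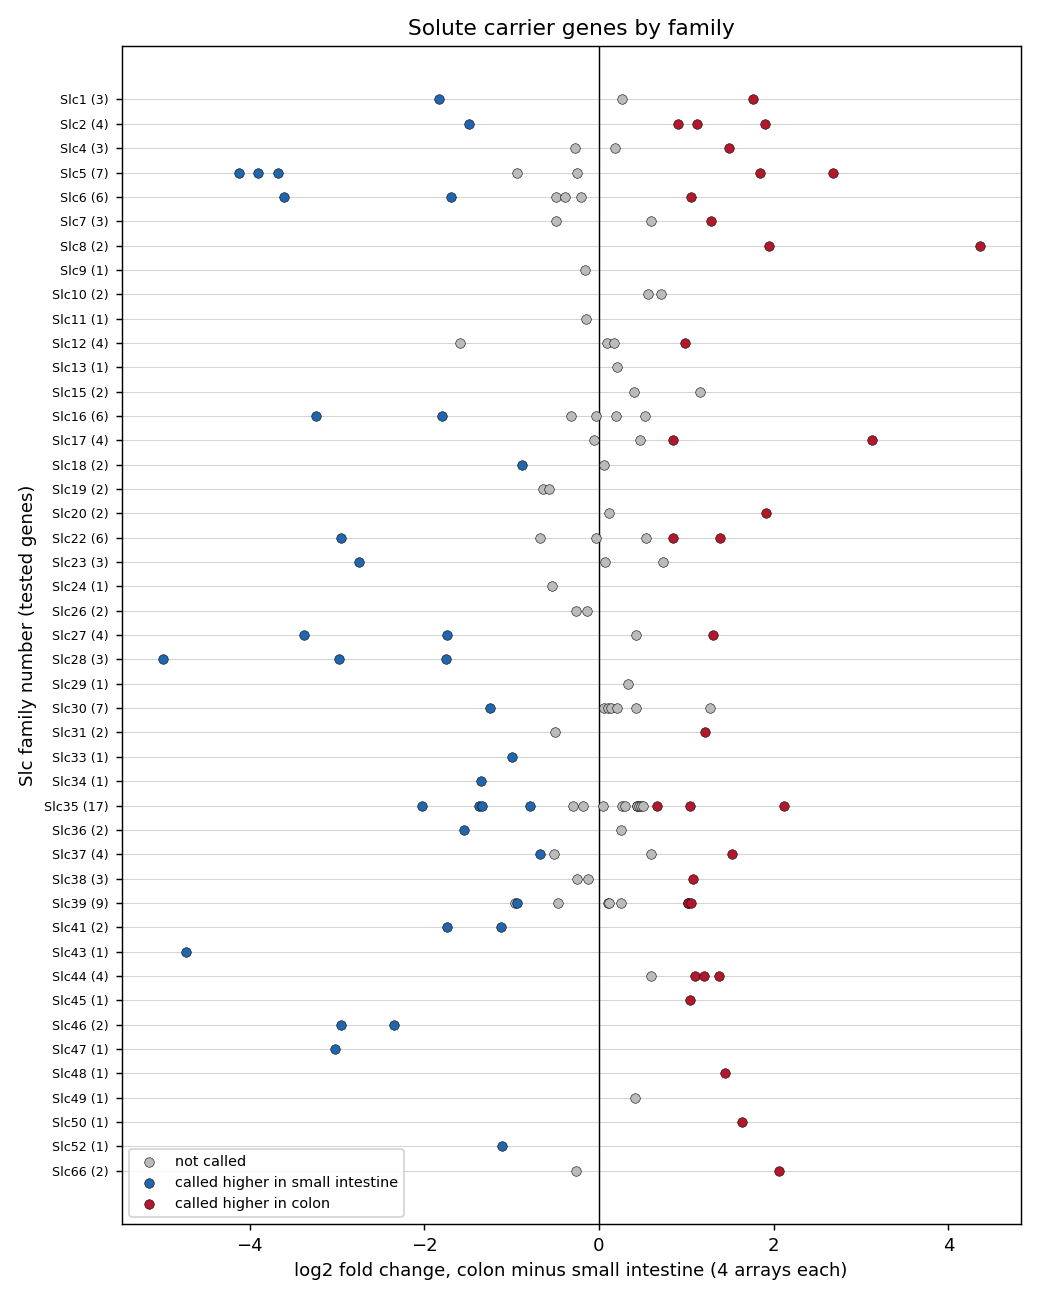
Each point is 1 tested solute carrier gene, placed by its log2 fold change (x axis, colon minus small intestine, 4 arrays each) in the row of its Slc family (y axis, number of tested genes in brackets). Slc28 and Slc46 lie wholly to the left, Slc44 and Slc8 wholly to the right, and Slc5 spans from -4.12 to 2.68.

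The family group of vitamins and nucleosides had calls in 1 direction only. Groups follow family numbers, so this one includes relatives with other substrates. Slc44a4, a carrier of thiamine pyrophosphate called for colon, was counted in another group. Of the 12 tested genes here, 7 were called for small intestine, 0 for colon and 5 were not called by limma (median fold change -1.43). At an unadjusted p under 0.05, 9 lay towards small intestine and 1 towards colon. Slc28a1 (CNT1), a sodium-coupled carrier of pyrimidine nucleosides, had the largest difference of all tested members. Its level was 10.74, 9.94, 10.92 and 10.83 on the small-intestinal arrays and 5.22, 4.68, 4.72 and 7.82 on the colon arrays. The segments did not overlap, but colon replicate 4 stood well above the other colon arrays and was the only colon array above background. The fold change was -4.99 (SE 0.60, adjusted p = 0.000143), or -5.73 without colon replicate 4. The summed enterocyte markers were also highest on that array, and their part in this value was not tested.

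Slc28a2 (CNT2), which prefers purine nucleosides, stood at 7.91, 6.50, 8.76 and 8.97 in small intestine against 4.95, 4.70, 4.54 and 6.07 in colon (fold change -2.97, SE 0.52, adjusted p = 0.0018). Small-intestinal replicate 2 was the lowest of its group and colon replicate 4 the highest of its own, with a gap left between the segments. Slc28a3 (CNT3), the broadly selective member, was lower in colon (fold change -1.75, SE 0.34, adjusted p = 0.00325), but a dimmer probe was not called (-0.61, adjusted p = 0.144). The facilitative nucleoside carrier Slc29a1 (ENT1) was above background on all 8 arrays and was not called, at 6.42 ± 0.35 against 6.75 ± 0.51 in colon (mean ± SD, n = 4, as for all such values), with a 95% interval of the fold change from -0.29 to 0.95. Among 9 tested enzymes of nucleoside salvage and breakdown, 4 were called for small intestine and 2 for colon. Ada, adenosine deaminase, stood at 12.01 ± 0.92 and 8.67 ± 1.60 (fold change -3.35, SE 0.71, adjusted p = 0.00604, or -4.11 without colon replicate 4). Upp1, uridine phosphorylase, stood at 10.30 ± 0.33 and 8.61 ± 0.29 (fold change -1.69, SE 0.23, adjusted p = 0.000314).

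Slc46a1 (PCFT), the proton-coupled folate carrier of the gut, differed between the small-intestinal arrays themselves. Its level there was 6.49, 6.65, 9.13 and 9.63, against 4.82, 5.73, 4.75 and 4.77 in colon. Small-intestinal replicates 3 and 4 were high, replicates 1 and 2 lay less than 1 unit above colon replicate 2, and the segments did not overlap (fold change -2.96, SE 0.66, adjusted p = 0.00789). The call was lost without colon replicates 1 and 4 (adjusted p = 0.0858). Slc46a3, a lysosomal relative, was lower in colon (fold change -2.35, SE 0.50, adjusted p = 0.00649). The reduced folate carrier Slc19a1 was not called (6.29 ± 0.27 and 5.65 ± 0.34, adjusted p = 0.0678, but 0.0491 with the replicate number as a block).

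Among the riboflavin and vitamin C families, 1 Slc52 gene and 1 of 3 tested Slc23 genes were called. Slc52a3, the riboflavin carrier of the gut surface, stood at 9.59, 9.50, 10.16 and 10.06 in small intestine against 8.60, 8.80, 8.68 and 8.80 in colon, and every small-intestinal array exceeded every colon array (fold change -1.11, SE 0.20, adjusted p = 0.00261). Slc23a4, whose rat counterpart carries nucleobases, was lower in colon (fold change -2.74, SE 0.48, adjusted p = 0.0019). The vitamin C carrier Slc23a2 (7.08 ± 0.84 and 7.14 ± 0.26, adjusted p = 0.918) and its relative Slc23a3 (7.10 ± 0.51 and 7.84 ± 0.20, adjusted p = 0.068, but 0.0206 without small-intestinal replicate 1) were not called. Slc5a6, a carrier of biotin and pantothenate counted below with its Slc5 family, was not called (8.61 ± 0.06 and 8.36 ± 0.39, 95% interval of the fold change -0.73 to 0.23). Of 6 tested genes that use folate, thiamine or riboflavin, 1 was higher in colon and 0 in small intestine. That gene, Ggh, a folate polyglutamate hydrolase, was not above background in small intestine and was at least 7.73-fold higher in colon (adjusted p = 3.31e-06).

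The sugar families and the sodium-glucose relatives held calls of both kinds. Of 17 tested, 8 were called for colon, 5 for small intestine and 4 were not called (median 0.59). Carriers of myo-inositol, a sugar alcohol used in signalling lipids and as an osmolyte, lay on opposite sides. Slc5a11 (SMIT2) stood at 9.29, 8.66, 9.38 and 9.65 in small intestine against 5.17, 4.83, 4.71 and 5.81 in colon (fold change -4.12, SE 0.29, adjusted p = 3.27e-06). Every small-intestinal array was high, and in colon only 1 array was above background. Slc5a3 (SMIT1) went the other way, at 5.17, 6.25, 5.54 and 5.38 against 7.18, 7.40, 7.93 and 7.19 (fold change 1.84, SE 0.27, adjusted p = 0.00057). Slc2a13 (HMIT), the proton-coupled carrier, was detected above background on all 4 colon arrays and on none from small intestine. It was at least 2.34-fold higher in colon (adjusted p = 0.000492).

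Slc5a4a and Slc5a4b, mouse genes of the SGLT3 type, were both higher in small intestine. Slc5a4a was above background on no colon array and at least 8.29-fold lower there (adjusted p = 1.09e-06). Slc5a4b stood at 9.57, 8.48, 9.35 and 8.61 against 5.36, 4.95, 5.00 and 6.00 (fold change -3.67, SE 0.31, adjusted p = 1.08e-05). These genes are close copies, as are Slc6a20a and Slc6a20b, and Slc22a4, Slc22a5 and Slc22a21, so a probe may read a sister gene too and their values are uncertain in that respect. Slc5a8 (SMCT1), a sodium-coupled carrier of lactate and short-chain fatty acids known from colon epithelium, was the member of this family with the largest excess in colon. Its level was 8.95, 8.12, 8.34 and 8.06 in small intestine and 10.74, 11.35, 11.00 and 11.10 in colon (fold change 2.68, SE 0.24, adjusted p = 1.51e-05). It was above background on all 8 arrays, with a clear gap between the segments.

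Of the facilitative Slc2 sugar carriers, Slc2a9, known as a urate carrier, was lower in colon (fold change -1.48, SE 0.29, adjusted p = 0.00359). Slc2a10 and Slc2a8, both of internal membranes, were higher in colon, with fold changes of 1.12 (SE 0.19, adjusted p = 0.00167) and 0.91 (SE 0.19, adjusted p = 0.00615), and both calls were lost without scaling between arrays (adjusted p = 0.0765 and 0.209). Slc2a8 also lost its call without colon replicates 1 and 4 (adjusted p = 0.071). Slc50a1 (SWEET1), a sugar uniporter, was higher in colon (fold change 1.63, SE 0.31, adjusted p = 0.00336). Slc37a2 was higher in colon (fold change 1.53, SE 0.27, adjusted p = 0.00208). Slc37a4, the glucose 6-phosphate carrier of the endoplasmic reticulum, was lower in colon (fold change -0.67, SE 0.20, adjusted p = 0.0354), a call lost on leaving out any 1 array but colon replicate 2 or small-intestinal replicate 2 (adjusted p of 0.0554 to 0.102 where lost), and also lost without scaling, with the replicate number as a block and without colon replicates 1 and 4 (0.0712 to 0.183).

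Amino acid carriers were called both ways. Of 22 tested genes of amino acids, peptides and amines, 6 were called for small intestine, 4 for colon and 12 were not called (median -0.16). Slc43a2 (LAT4), a uniporter of branched-chain and aromatic amino acids on the blood side, stood at 10.45, 10.65, 11.04 and 10.87 in small intestine against 6.04, 5.82, 5.97 and 6.29 in colon. It was above background on all 8 arrays, its spread was small in both segments, and its fold change was -4.72 (SE 0.20, adjusted p = 1.05e-07). A further probe of this gene gave -2.38.

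Slc6a20a (SIT1), a proline carrier of the brush border, stood at 9.90, 9.37, 10.07 and 9.93 against 6.54, 5.69, 6.31 and 6.33 (fold change -3.60, SE 0.24, adjusted p = 2.29e-06), and no array of a segment came near the other segment. Slc16a10 (TAT1), an aromatic amino acid carrier counted with the organic ions by its family, stood at 7.84, 8.48, 9.74 and 9.52 against 5.89, 5.32, 5.89 and 5.51 (fold change -3.24, SE 0.38, adjusted p = 0.000125). As for Slc46a1, small-intestinal replicates 3 and 4 were the high ones. Slc6a4, the serotonin carrier, was lower in colon (fold change -1.69, SE 0.30, adjusted p = 0.00205), with small-intestinal replicate 3 above the other 3.

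In colon, the neutral amino acid exchanger Slc1a4 (ASCT1) was higher. It stood at 7.29, 7.45, 7.16 and 7.44 in small intestine against 9.44, 9.28, 8.57 and 9.12 in colon (fold change 1.76, SE 0.22, adjusted p = 0.000172), without overlap. The glycine carrier Slc6a9 was higher in colon (fold change 1.05, SE 0.28, adjusted p = 0.0211), and the call was lost without small-intestinal replicates 2, 3 or 4 (0.0523 to 0.066), without scaling (0.112) and without colon replicates 1 and 4 (0.0537). The taurine carrier Slc6a6 (11.77 ± 0.24 and 11.37 ± 0.48, adjusted p = 0.314) and Slc7a5 (LAT1, 5.81 ± 0.21 and 5.31 ± 0.49, adjusted p = 0.201) were not called.

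**Figure D3:**
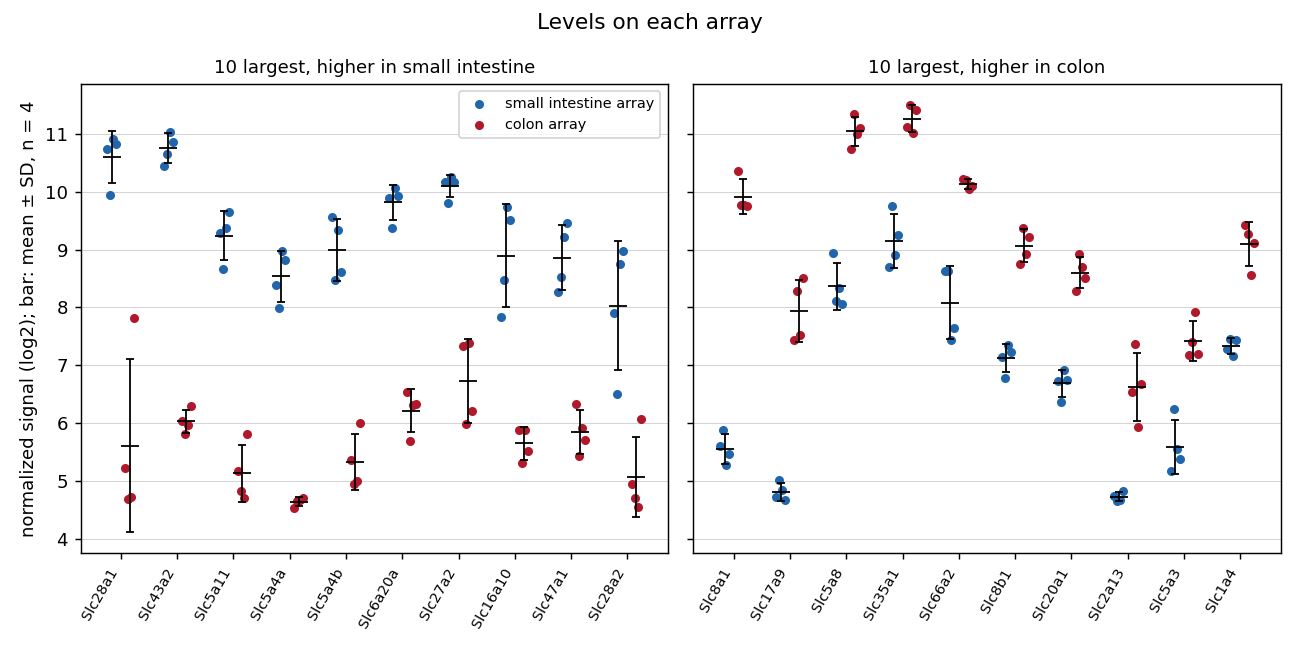
Normalized log2 signal (y axis) on each array for the 10 tested carriers with the largest excess in small intestine (left) and in colon (right) among those without overlap, blue points for small intestine and red for colon, black bars for mean ± SD (n = 4). Slc28a1 on colon replicate 4, at 7.82, lies far above the other colon points, and no blue point reaches a red one of the same gene.

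Carriers of organic ions, fatty acids and choline were called both ways: of 28 tested, 8 were called for colon and 6 for small intestine (median 0.45). Slc17a9 (VNUT), which loads ATP into secretory vesicles, stood at 4.72, 5.02, 4.84 and 4.68 in small intestine against 7.44, 8.28, 7.53 and 8.51 in colon. All colon arrays and none from small intestine were above background, and the gene was at least 5.83-fold higher in colon (adjusted p = 9.74e-06).

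The choline carrier-like Slc44 family had 3 of its 4 tested genes called for colon. Slc44a2, a choline carrier, stood at 7.71, 7.07, 7.83 and 7.34 in small intestine against 8.61, 9.10, 8.96 and 8.77 in colon (fold change 1.37, SE 0.22, adjusted p = 0.00106). Slc44a4, known in human colon as a carrier of thiamine pyrophosphate, stood at 10.70, 10.01, 10.16 and 10.17 against 11.53, 11.24, 11.49 and 11.58 (fold change 1.20, SE 0.20, adjusted p = 0.00143). Both were above background on all 8 arrays and did not overlap between segments. Slc44a3 was higher by 1.10 (SE 0.19, adjusted p = 0.0016, but 0.0557 without scaling between arrays). By its brightest probe Slc44a1 was not called (9.35 ± 0.26 and 9.95 ± 0.35, fold change 0.60, adjusted p = 0.087). Its other probes were called for colon, with fold changes of 1.25 (adjusted p = 0.00289) and 1.55 (adjusted p = 0.000779), and the mean of its probes gave 1.13 (adjusted p = 0.00125). A dimmer probe of Slc44a2 was not called (fold change 0.58, adjusted p = 0.162).

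Small-intestinal excess was found for Slc27a2 (FATP2), an acyl-CoA synthetase of very long fatty acids, which stood at 10.16, 9.81, 10.26 and 10.17 against 7.33, 5.99, 7.38 and 6.21 in colon (fold change -3.37, SE 0.32, adjusted p = 2.64e-05). Colon replicates 1 and 3 lay above 2 and 4, and all lay well below the small-intestinal arrays. Slc27a4 (FATP4) was above background on no colon array and at least 2.24-fold lower there (adjusted p = 0.00057), while Slc27a3 was higher in colon (fold change 1.31, SE 0.20, adjusted p = 0.000879). Of 7 tested genes of carnitine and acyl-CoA metabolism, 3 were called for small intestine and 2 for colon. Bbox1, the last enzyme of carnitine synthesis, was at least 3.01-fold lower in colon (adjusted p = 7.08e-05). The acyl-CoA synthetases Acsl5 and Acsl3 had fold changes of -1.72 (SE 0.19) and 2.03 (SE 0.17).

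Slc47a1 (MATE1), a proton-coupled exporter of organic cations, stood at 8.27, 8.52, 9.21 and 9.45 in small intestine against 6.33, 5.43, 5.91 and 5.71 in colon (fold change -3.02, SE 0.30, adjusted p = 3.23e-05), and its other probes gave -2.66 and -2.87. Slc22a4 (OCTN1), a carrier of ergothioneine, was above background on no colon array and at least 4.82-fold lower there (adjusted p = 2.96e-05). Its neighbour in the family, the carnitine carrier Slc22a5 (OCTN2), was not called (8.80 ± 0.18 and 8.12 ± 0.68, adjusted p = 0.146, but 0.0289 without colon replicate 1). Of its other probes, 1 was called for small intestine (fold change -0.70, adjusted p = 0.0258) and 1 was not (-0.88, adjusted p = 0.117). Slc22a23 was higher in colon (fold change 1.38, SE 0.23, adjusted p = 0.00123), but its call was lost when the gene's probes were averaged (adjusted p = 0.085). The citrate and succinate carrier Slc13a2 (10.03 ± 0.53 and 10.24 ± 0.21, adjusted p = 0.619) and the lactate exporter Slc16a3 (MCT4, adjusted p = 0.486, above background on 2 arrays of each segment) were not called. Of 3 tested genes of lactate use and its regulation, 0 were called by limma and 0 had an unadjusted p under 0.05.

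Carriers of inorganic ions and phosphate had 5 calls in colon and 1 in small intestine of 16 (median 0.10). Slc8a1 (NCX1), the sodium-calcium exchanger of the cell surface, had the largest excess in colon of all members. Its level was 5.60, 5.89, 5.28 and 5.46 in small intestine and 10.37, 9.77, 9.77 and 9.75 in colon (fold change 4.36, SE 0.22, adjusted p = 3.21e-07). Only 2 of the small-intestinal arrays were above background, so that the fold is measured near the floor. Slc8b1 (NCLX), the mitochondrial sodium-calcium exchanger, stood at 7.14, 6.78, 7.35 and 7.23 against 8.75, 9.38, 8.93 and 9.21 (fold change 1.94, SE 0.21, adjusted p = 6.54e-05), without overlap.

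Of 3 tested phosphate carriers of the Slc20 and Slc34 families, 1 was called for colon and 1 for small intestine. Slc20a1 (PiT1), the housekeeping carrier, stood at 6.74, 6.37, 6.91 and 6.74 in small intestine against 8.29, 8.92, 8.70 and 8.51 in colon (fold change 1.91, SE 0.21, adjusted p = 6.29e-05). Slc34a2 (NaPi-IIb), the regulated carrier of the intestinal brush border, stood at 10.44, 9.39, 9.89 and 10.05 against 8.07, 8.33, 9.10 and 8.88 (fold change -1.35, SE 0.29, adjusted p = 0.00652), a call lost without colon replicates 1 and 4 (adjusted p = 0.0567). Slc20a2 (PiT2) was not called (9.41 ± 0.28 and 9.53 ± 0.27, adjusted p = 0.74). The segments overlapped for neither called gene, though for Slc34a2 colon replicate 3 came close to small-intestinal replicate 2. The chloride-bicarbonate exchanger Slc4a2 (AE2) was higher in colon (fold change 1.49, SE 0.32, adjusted p = 0.00639, but 0.0921 without colon replicates 1 and 4). Its segments overlapped: small-intestinal replicate 1, at 9.72, lay just above colon replicate 2, at 9.71. Slc12a8 was higher in colon (fold change 0.99, SE 0.20, adjusted p = 0.00525), a call lost without scaling (0.0703) and without colon replicates 1 and 4 (0.0552). The potassium-chloride carrier Slc12a7 was not called (6.55 ± 1.34 and 4.95 ± 0.53, adjusted p = 0.0677, but 0.000633 without small-intestinal replicate 1). Of 4 tested kinases that regulate the Slc12 carriers, 0 were called by limma, and 1, Wnk2, had an unadjusted p under 0.05 (adjusted p = 0.137, but 0.0359 with the authors' values).

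Of the zinc carrier families, Slc39 had 3 of 9 tested genes called for colon and 1 for small intestine. Slc30 had 1 of 7 called, for small intestine. Over all named genes tested, 22.4% were called. Of 22 tested genes of metals and heme, 5 were called for colon, 4 for small intestine and 13 were not called (median 0.11). Slc39a4 (ZIP4), the luminal zinc importer, stood at 9.96 ± 0.39 in small intestine against 10.07 ± 0.11 in colon (95% interval of the fold change -0.37 to 0.60), and the zinc exporter Slc30a1 (ZnT1) at 7.80 ± 0.21 and 7.94 ± 0.21 (interval -0.29 to 0.56). The Golgi zinc carrier Slc30a7 was not called either (adjusted p = 0.185), while Slc30a5, which acts in the same compartment, was lower in colon (fold change -1.25, SE 0.35, adjusted p = 0.0282). The Slc30a5 call was lost without colon replicates 3 or 4, without small-intestinal replicates 2, 3 or 4 (0.0551 to 0.0818), and with the authors' values, no filter or without colon replicates 1 and 4 (0.0606 to 0.079).

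Slc39a8 (ZIP8), a carrier of zinc and manganese, stood at 9.38, 9.68, 9.29 and 9.16 in small intestine against 10.64, 10.34, 10.57 and 10.04 in colon (fold change 1.02, SE 0.21, adjusted p = 0.00452). Slc39a13 (ZIP13) was higher in colon (fold change 1.06, SE 0.24, adjusted p = 0.00908). Without scaling between arrays both calls were lost (adjusted p = 0.0711 for Slc39a8 and 0.0812 for Slc39a13), and a dimmer probe of Slc39a13 was not called (fold change 0.05, adjusted p = 0.923). Slc39a6 was lower in colon (fold change -0.94, SE 0.30, adjusted p = 0.0488), with overlapping segments, and its call was lost under 11 of 18 alternatives, among them leaving out any 1 array but small-intestinal replicate 1. Slc39a11 was higher in colon (fold change 1.02, adjusted p = 0.00141), but its call was not followed under the alternatives. By its brightest probe Slc39a14 was not called (fold change -0.96, adjusted p = 0.0591), but a dimmer probe was called for small intestine (-1.42, adjusted p = 0.000249). Of 4 tested genes of zinc binding and response, 2 were called for colon and 0 for small intestine. These were the metallothioneins Mt1 (10.94 ± 0.18 and 12.04 ± 0.21, fold change 1.11, adjusted p = 0.00153) and Mt2 (7.40 ± 0.22 and 9.14 ± 0.44, fold change 1.74, adjusted p = 0.000411).

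Carriers of other metals were called in both directions. Slc41a2 and Slc41a3, magnesium carriers, were lower in colon, with fold changes of -1.74 (SE 0.44, adjusted p = 0.0161) and -1.12 (SE 0.21, adjusted p = 0.0026). The call of Slc41a2 was lost without small-intestinal replicate 3 or 4 (0.0524 and 0.0519), without a filter (0.0566) and with colon replicates 1 and 4 left out (0.0703). Slc41a3 lost its call under the last of these (0.0501), and its dimmer probe was not called (-0.70, adjusted p = 0.0593). Slc48a1 (HRG1), a heme carrier of endosomes, was higher in colon (fold change 1.45, SE 0.19, adjusted p = 0.000283). Slc31a2, a relative of the copper importer, was higher by 1.22 (SE 0.25, adjusted p = 0.00569, but 0.115 without scaling).

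The group of nucleotide sugar and acetyl-CoA families was called both ways. It follows family numbers, so it includes relatives with other substrates. In this group 44.4% were called, against 49.3% of all tested carriers kept by the rule and 22.4% of all named genes tested. Of 18 tested genes in this group, with the acetyl-CoA carrier included, 3 were called for colon, 5 for small intestine and 10 were not called (median 0.28). Slc35a1, which imports CMP-sialic acid, stood at 8.69, 9.76, 8.90 and 9.26 in small intestine against 11.12, 11.50, 11.02 and 11.42 in colon. Every colon array was more than 1 unit above every small-intestinal array (fold change 2.11, SE 0.25, adjusted p = 0.000129), and a further probe gave 3.01. Slc35c1, which imports GDP-fucose, stood at 9.62, 9.62, 9.59 and 9.53 against 10.48, 10.87, 10.69 and 10.47 (fold change 1.04, SE 0.17, adjusted p = 0.00143). Its other probes gave 0.79 and -0.09, and the call was lost with the mean of the probes (adjusted p = 0.0713) and without scaling (0.0624).

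Slc35c2, a relative of the GDP-fucose carrier, went the other way, at 9.43, 9.36, 10.17 and 9.98 in small intestine and 7.52, 7.99, 7.44 and 7.85 in colon (fold change -2.03, SE 0.24, adjusted p = 0.000124), and all 3 of its probes were negative. Slc35b1, a carrier of the endoplasmic reticulum, was lower in colon (fold change -0.79, SE 0.21, adjusted p = 0.0211). The call of Slc35b1 was lost without colon replicates 1 or 2, without small-intestinal replicates 3 or 4 (0.0512 to 0.0614), and without colon replicates 1 and 4 together (0.109). The UDP-galactose carrier Slc35a2 (adjusted p = 0.289) and the UDP-GlcNAc carrier Slc35a3 (10.77 ± 0.23 and 11.07 ± 0.21, adjusted p = 0.327) were not called. Of 11 tested genes of nucleotide sugar synthesis, 4 were called for colon and 1 for small intestine. Gne and Nans, enzymes of sialic acid synthesis, were among the 4, at 7.14 ± 0.05 against 9.68 ± 0.37 (fold change 2.54, SE 0.21, adjusted p = 9.53e-06) and 10.11 ± 0.29 against 11.59 ± 0.16 (fold change 1.48, SE 0.20, adjusted p = 0.000334).

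Slc66a2, to which no substrate is assigned here, stood at 8.63, 8.64, 7.43 and 7.65 in small intestine against 10.22, 10.20, 10.04 and 10.10 in colon (fold change 2.06, SE 0.29, adjusted p = 0.000421). In small intestine replicates 1 and 2 were higher than 3 and 4, and in colon the arrays lay close together. All 5 tested PDZ scaffolds and binding partners of transporters were called, 3 higher in small intestine and 2 in colon. Over all named genes tested, 22.4% were called, and this short list was chosen with earlier results known. Pdzk1, a scaffold of brush border carriers, stood at 11.52 ± 0.41 and 7.06 ± 1.07 (fold change -4.45, SE 0.46, adjusted p = 4.23e-05), and its partner Pdzk1ip1 at 6.01 ± 0.56 and 9.63 ± 0.42 (fold change 3.62, SE 0.31, adjusted p = 1.05e-05). Pdzk1 was above background on 3 colon arrays and Pdzk1ip1 on 3 small-intestinal arrays.

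**Figure D4:**
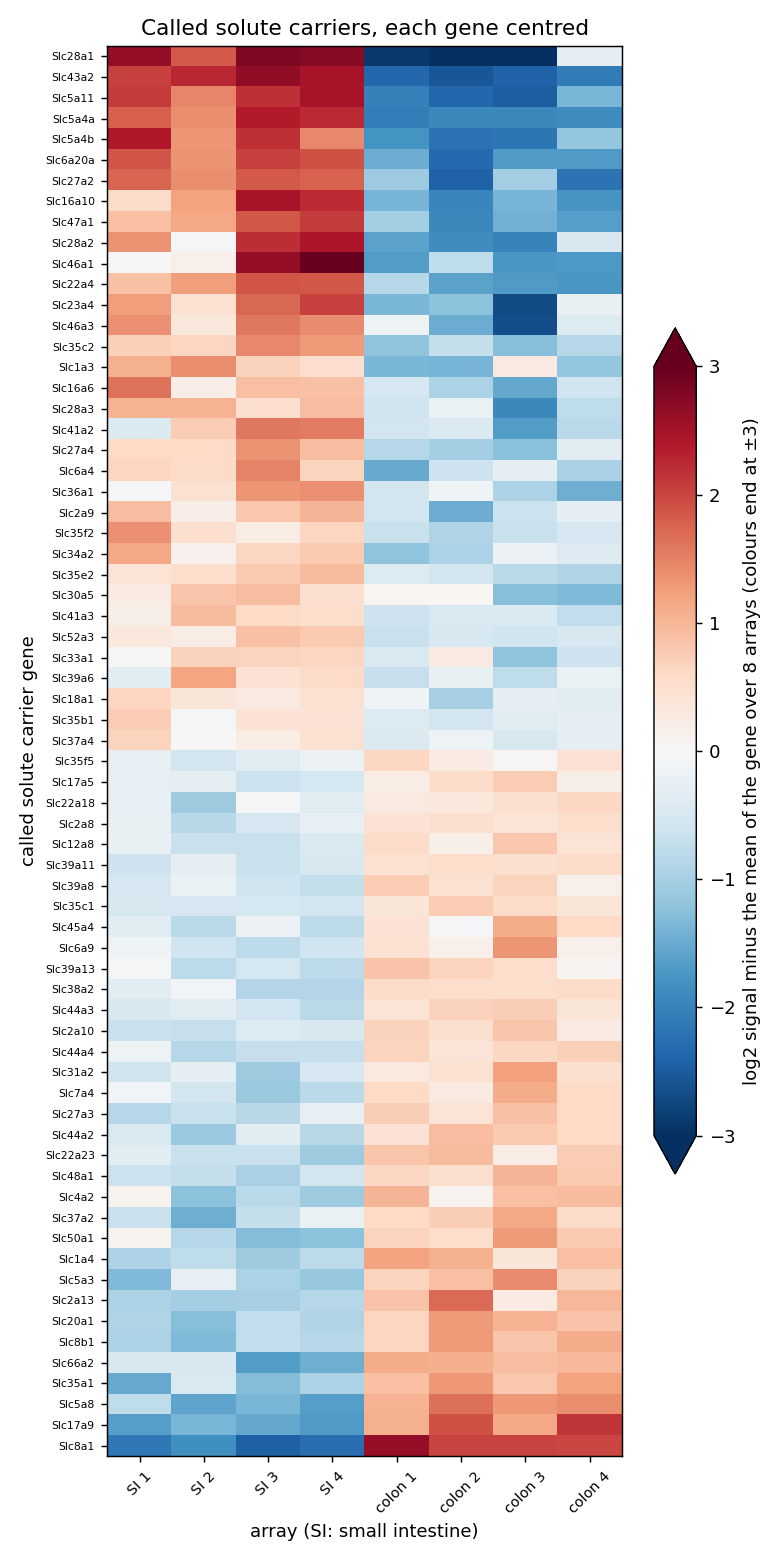
The 68 called solute carriers (y axis, ordered by fold change) on the 8 arrays (x axis), coloured by the log2 signal minus the gene's mean over the arrays. Small-intestinal replicates 3 and 4 are the darkest for Slc46a1 and Slc16a10, and colon replicate 4 is paler than the other colon arrays for Slc28a1.

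The called carriers were also uneven within a segment, and the order of the arrays was not counted for other called genes. Among the 34 genes higher in small intestine, small-intestinal replicates 1 and 2 were the lowest of the 4 for 13 and 17 genes, and replicates 3 and 4 for 3 and 1. Replicates 1 to 4 were the highest for 8, 4, 14 and 8 of these genes. On the colon arrays, replicate 4 was the highest for 12 of these genes, replicates 1 and 2 for 8 each and replicate 3 for 6. Colon replicates 1 to 4 were the lowest for 4, 12, 13 and 5, and the median level was 6.53 on replicate 1 and 6.32 on replicate 4. The summed enterocyte markers were higher on small-intestinal replicates 3 and 4 (55346 and 53161) than on 1 and 2 (41084 and 38720). Their part in the order of the arrays was not tested. Among the 34 genes higher in colon, colon replicate 3 was the highest for 13, and the others for 6 to 8.

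Promoter windows from RefSeq (GRCm38.p6, 250 bases before to 50 after a gene's start) were found for 56 of the 68 called genes. The windows of the members with the largest difference in each direction are printed whole, to show the start regions of the most opposed carriers. Capitals mark any match to the letters searched on both strands, namely GTTAAT for HNF1, CAAAGTCCA for HNF4, AGATAA for GATA factors, and TTTATTG or TTTATGG for CDX factors, all known regulators of gut epithelium.
Slc28a1, largest difference towards small intestine, chr7:81114549-81114848, plus strand: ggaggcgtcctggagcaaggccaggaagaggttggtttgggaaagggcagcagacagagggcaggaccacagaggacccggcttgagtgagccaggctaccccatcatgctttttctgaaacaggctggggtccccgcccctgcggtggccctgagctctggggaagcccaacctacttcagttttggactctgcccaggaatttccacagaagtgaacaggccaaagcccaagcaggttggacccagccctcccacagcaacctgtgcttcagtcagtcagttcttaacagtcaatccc
Slc8a1, largest difference towards colon, chr17:81738338-81738637, minus strand: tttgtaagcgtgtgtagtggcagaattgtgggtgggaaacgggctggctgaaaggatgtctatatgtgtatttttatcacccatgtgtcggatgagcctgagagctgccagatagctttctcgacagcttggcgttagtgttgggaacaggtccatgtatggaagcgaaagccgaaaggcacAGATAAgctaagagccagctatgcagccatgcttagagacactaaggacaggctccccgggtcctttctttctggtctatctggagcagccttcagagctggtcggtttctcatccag

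The Slc28a1 window held none of these letters, and the Slc8a1 window held AGATAA at 68 bases before the start. The HNF1 letters were in 5 of 32 windows (15.6%) of genes higher in small intestine, 1 of 39 (2.56%) of genes higher in colon, 2 of 71 (2.82%) of genes not called, and 7.10% of all 32851 windows. The GATA letters were in 1 of 32, 6 of 39, 6 of 71 and 11.2% in the same order. For the CDX letters the numbers were 2 of 32, 1 of 39, 1 of 71 and 7.20%, and the HNF4 letters were in 0 windows of the carriers and 0.475% of all. Some genes have several windows, and a match is a description of letters, not of a bound site. The stretches around the HNF1 letters of called genes are shown, 5 from genes higher in small intestine and 1, Slc12a8, from a gene higher in colon, with the letters in capitals.
Slc28a2, chr2:122426420-122426449, plus strand: gctggtgagggtGTTAATccttgctgcagc
Slc6a20a, chr9:123678871-123678900, minus strand: ccccgcgcgcgcGTTAATgagattagcaat
Slc16a10, chr10:40142469-40142498, minus strand: agaacttctaagGTTAATgctgagaggagg
Slc5a4a, chr10:76147450-76147479, plus strand: ctgaggctgatcATTAACtcaggacttata
Slc36a1, chr11:55204090-55204119, plus strand: aatgcacGTTAATatatgctgaacaaataa
Slc12a8, chr16:33517162-33517191, plus strand: atctctctgtatGTTAATtcccacccctcg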

How the data were processed

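The deposited signal table holds the mean probe intensity of each array on a linear scale, not background-subtracted or scaled, and a detection p-value per probe, per the file headers and the values. The authors' processed intensity, in another deposited table, is an exact straight line of each array's signal with 141 to 163 units subtracted and every array scaled to a mean of 293. For scanner software and build, the labels and headers name none. In 1 cell the deposited signal was not a number, and it was restored from that line.

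Background was corrected with normexp from the detection p-values (offset 16), followed by quantile normalization and log2, with limma 3.58.1 in R 4.3.3. Further steps used Python 3.11.15 with pandas 2.3.3 and numpy 2.4.6, and figures were drawn with matplotlib 3.10.9. Platform symbols were brought up to date by Entrez identifier for 23962 probes, by accession for 9, and kept for 7, while 1719 probes had none. The 378 carrier probes were the same with the symbols as given.

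Probes with detection p below 0.05 on at least 4 of 8 arrays were tested (13618, of which 2919 or 21.4% were called), including 183 probes of the carriers, and a gene with several tested probes took the values of the brightest by mean. Of 32 carriers with several tested probes, 6 had probes of opposite sign. The model was lmFit and eBayes on group alone, two-sided, with Benjamini-Hochberg adjustment over all tested probes. The bound for a gene that no array of a segment detected used, per array, the higher of its value and the lowest level above background (5.28 to 5.61). On simulated arrays of 13618 probes, 37 of 100 changes of 2-fold and 90 of 100 of 4-fold were recovered, with 6 false among 133 calls. No other probes were changed, a far smaller share than the 21.4% called in the data, and large spreads were capped. The simulated recovery therefore does not measure how often changes were missed in the data. The number of arrays limits the precision.

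The members, the lists of partner genes and markers, and the tests were chosen with earlier results of these data known. Named were the 10 largest called fold changes in each direction without overlap, the extreme called members of families with at least 4 tested genes, and genes chosen by role. Of the genes so named, 54 were tested and 5 were not. Other genes named were chosen after their values were seen. Marker lists were also made for enteroendocrine cells (1 of 7 tested higher in colon, 2 in small intestine), tuft cells (0 of 3 called by limma, 0 at an unadjusted p under 0.05), macrophages (the 1 tested was higher in small intestine), stromal and neuronal cells (0 of 1 called each, 0 unadjusted) and erythroid cells (1 of 2 higher in colon). Alternatives were an offset of 50, no background correction, no scaling, the authors' values with a floor of 16, other filters, another variance prior, averaged probes, a replicate block and omission of arrays.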

Additional observations from a re-analysis of the deposited data

Results flagged for a closer look

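In 8 of 170 groups of 4 arrays examined, for 85 genes named, 1 array lay far from the other 3. Chance alone gives about 1 in 20 such groups. Colon replicate 2 held the odd value for Slc12a7 (5.74, the others 4.61 to 4.80), for Slc46a1 (5.73, the others 4.75 to 4.82) and for Slc4a2 (9.71, the others 10.51 to 10.63). Colon replicate 1 held it for Slc22a4 (5.43, the others 4.53 to 4.68) and for Slc8a1 (10.37, the others 9.75 to 9.77). In small intestine these were replicate 1 for Slc6a6 (11.40, the others 11.85 to 11.94), replicate 3 for Slc6a4 (7.94, the others 7.02 to 7.13) and replicate 2 for Ggh (5.00, the others 4.84 to 4.87, all below background).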

How the results depend on the processing

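Counts of carriers called stayed within 1.5 times of 34 and 34 under the alternatives run, except for 19 higher in colon without scaling between arrays and 21 higher in small intestine when each probe had to be above background on all 8 arrays. The calls over all probes numbered 1580 for colon and 1339 for small intestine. These counts became 744 in colon without scaling, 847 in small intestine under that stricter filter, and 943 and 805 without colon replicates 1 and 4. Omission of single arrays gave 31 to 38 carriers higher in colon and 28 to 35 in small intestine. Without scaling, 46.4% of the called named genes were higher in colon, against 58.5% with it. Fabp1, Aqp8, Tff3, Clca1, Slc22a21, Slc36a1, Slc39a11 and Slc39a14 were not run under the alternatives. Of the named genes run under them, no called gene changed sign. Of the 66 called genes so run, 47 kept their call under every alternative. The largest numbers of lost calls among these 66 came without colon replicates 1 and 4, with 12 lost, and without scaling, with 11. Of all 68 called carriers, named or not, 49 kept their call without colon replicates 1 and 4, and 50 without scaling. Of the 19 named genes run that were not called in the main fit, 6 were called under some alternative: Slc12a7, Slc19a1, Slc22a5, Slc23a3, Slc44a1 and Wnk2. The cause was not tested.

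The replicate numbers of the titles were not shown to pair the samples: deviations of same-numbered samples correlated at 0.068, 0.25, -0.18 and 0.045. With the number as a replicate block, 34 carriers were called for colon and 36 for small intestine, and 1 named gene, Slc37a4, lost its call, while Slc19a1 gained one (adjusted p = 0.0491). In the simulation, where far fewer probes changed than were called in the data, 37 of 100 changes of 2-fold were recovered. How often such changes were missed in the data was not measured. Levels near background understate folds.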
